A study of Sus scrofa with 8 samples.

Results

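The SLC25A genes are the mitochondrial carrier family, and 38 of the 22676 pig gene IDs in the deposited expression table carried a symbol made of SLC25A and a number. The symbol came from the authors' m6A peak lists for 27 of them and from an Ensembl name table for the other 11. The tissue was adipose tissue of male pigs aged 180 days, from 2 animals of the leaner Landrace breed and 2 of the fatty Jinhua breed. Each animal gave an input library of mRNA and a library made after pull-down with an antibody against N6-methyladenosine (m6A), a methyl mark on adenosines within RNA. No treatment, engineered allele or further strain is given in the labels, and they do not say which fat depot or cell fraction was taken.

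Most mitochondrial carriers sit in the inner membrane of the mitochondrion, which small charged molecules do not cross unaided, and each carries a small set of metabolites, nucleotides, amino acids or cofactors between cytosol and matrix. In fat cells the family is known for the export of citrate for fatty acid synthesis, the entry of acylcarnitines for fatty acid oxidation, and the exchange of ADP for ATP. The roles given below are known mainly from human and mouse proteins, and no role is given for SLC25A16, SLC25A34, SLC25A35, SLC25A43, SLC25A45, SLC25A47, SLC25A48 and SLC25A53.

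The identity of 2 members was uncertain. ENSSSCG00000012623 was SLC25A6 in the authors' lists and SLC25A5 in the name table, and these near-identical ADP/ATP carriers can share reads. ENSSSCG00000017907 was SLC25A11 in the authors' lists and PFN1, the gene of the actin-binding protein profilin, in the name table. Both are called by the authors' symbol below. ENSSSCG00000013927 went the other way, as ARMC6 in the lists and SLC25A42 in the table, and was not counted as a member.

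Of the labelled tissue's markers, all 10 adipocyte genes were matched and had a mean of at least 1 FPKM, a level scaled to the length of the gene and the depth of the library. Values of a breed are given below in the order of replicates 1 and 2. The adipocyte markers summed to 23806 and 12798 FPKM in Landrace and to 8377 and 13659 FPKM in Jinhua, and 7 of the 10 were highest in Landrace replicate 1. All 10 measured skeletal muscle markers were highest in Landrace replicate 2, with a summed FPKM of 2841 there against 82.8 to 134.1 in the other libraries. Over all gene IDs the summed FPKM was 2802140 and 4143539 in Landrace and 1540218 and 1920898 in Jinhua. The marker sums were not scaled to these totals, so they are not shares of a library. Read depths are unknown. In bulk tissue, fewer cells of a type and less RNA per cell cannot be told apart.

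Carrier levels ran from genes listed at 0 to 1210.2 FPKM. A mean of at least 1 FPKM over the 4 input libraries was reached by 36 members, 7 of them above 100, 3 from 50 to 100, 10 from 10 to 50 and 16 from 1 to 10. The median of these means was 13.6 FPKM, beside 10.4 FPKM over all 13693 gene IDs that passed the same filter. Members from 10 to 50 FPKM included, in order, SLC25A28, SLC25A33, SLC25A38, SLC25A36, SLC25A44, SLC25A29, SLC25A23, SLC25A26 and SLC25A24. Those from 1 to 10 FPKM were SLC25A16, SLC25A43, SLC25A25, SLC25A37, SLC25A27, SLC25A46, SLC25A35, SLC25A13, SLC25A40, SLC25A14, SLC25A12, SLC25A32, SLC25A15, SLC25A47, SLC25A45 and SLC25A48. Below 1 FPKM were SLC25A53, listed at 0 to 0.351 FPKM, and the testis-type ADP/ATP carrier gene SLC25A31, listed at 0 in all 4 libraries. In the order of mean levels, none of the 35 neighbouring pairs was separated by more than the range over the 4 libraries, so the order is given only as the means stand.

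**Figure D1:**
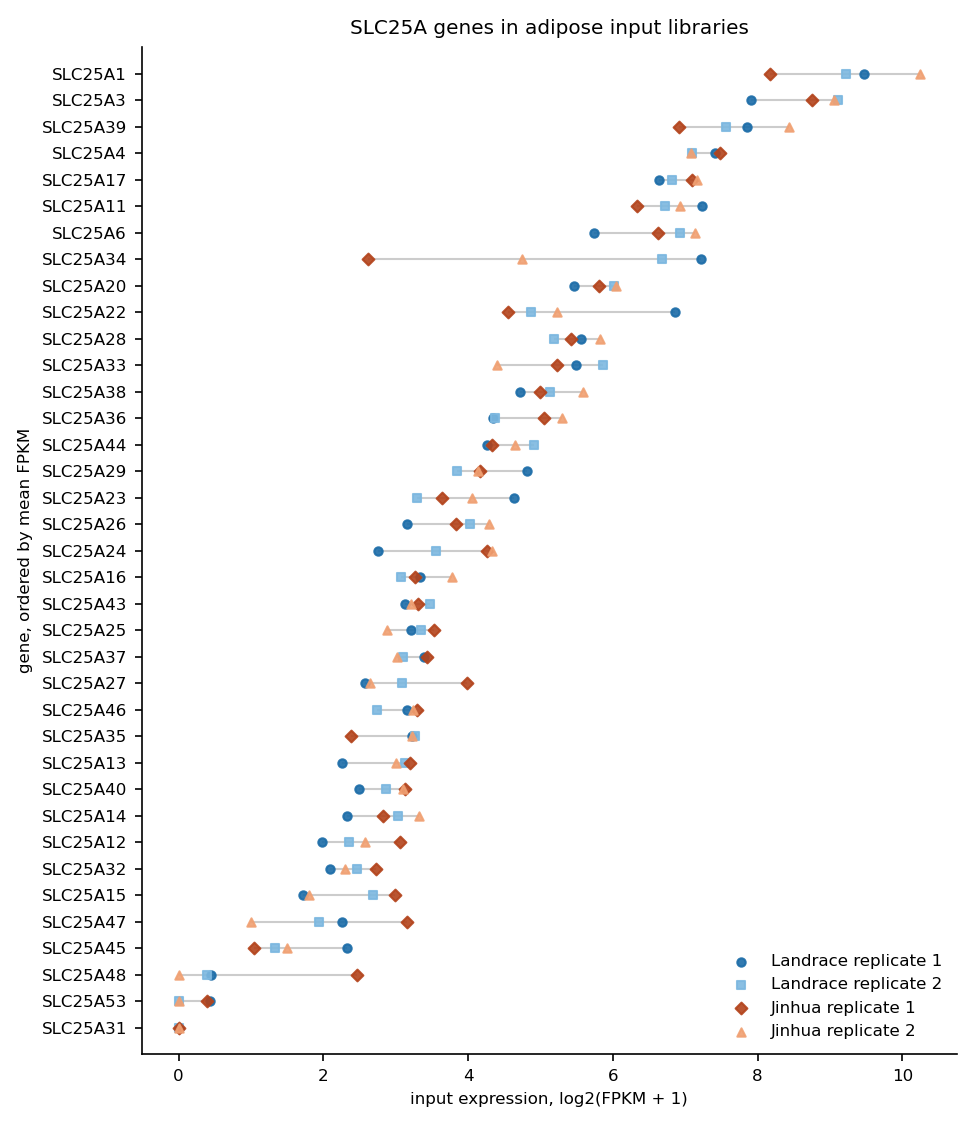
Input expression of 37 SLC25A genes as log2(FPKM + 1), with 1 point per library, a grey line over the range of the 4 libraries, and genes ordered by mean FPKM. SLC25A1 and SLC25A3 stand at the top, SLC25A34 has the widest range among the abundant genes, and SLC25A31 is listed at 0 in every library.

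SLC25A1 and SLC25A3 were the most abundant members. SLC25A1 (ENSSSCG00000010116), the citrate carrier that supplies cytosolic acetyl-CoA for fatty acid synthesis, had 706 and 595 FPKM in Landrace and 287 and 1210.2 in Jinhua. The Jinhua animals were thus the lowest and the highest, and the breeds overlapped. ACLY, which cleaves the exported citrate, had 885 and 1174 FPKM in Landrace and 476 and 2176 in Jinhua, with its lowest and highest values in the same animals as SLC25A1. The adipocyte marker FASN was lowest in the same animal but highest in Landrace replicate 1. It had 11245 and 4859 FPKM in Landrace and 1637 and 4782 in Jinhua. SLC25A3 (ENSSSCG00000000886), the phosphate carrier that feeds ATP synthase, had 238 and 551 FPKM in Landrace and 432 and 532 in Jinhua. Only Landrace replicate 1 stood low for this gene. Together SLC25A1 and SLC25A3 made up 41.6%, 49.3%, 40.8% and 56.0% of the family's summed FPKM in the Landrace and then the Jinhua libraries.

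The ADP/ATP carrier genes, which exchange the fuel of the cell across the inner membrane, differed in their steadiness. SLC25A4, the form that predominates in heart and skeletal muscle, had 168 and 135 FPKM in Landrace and 177 and 134 in Jinhua, so that its highest library exceeded its lowest by 1.32 times. Its level in Landrace replicate 2, the library in which all measured muscle markers were highest, lay within the range of the other 3, and a muscle contribution to it was not tested. SLC25A6 had 52.3 and 121 FPKM in Landrace and 98.0 and 139.6 in Jinhua, again with Landrace replicate 1 lowest.

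Carriers of carboxylates, acylcarnitines and glutathione were also among the 10 most abundant members. SLC25A39, a glutathione carrier, had 229 and 188 FPKM in Landrace and 119.9 and 344 in Jinhua, which puts the Jinhua animals at both ends, as for SLC25A1. SLC25A11, the oxoglutarate-malate exchanger if the authors' symbol holds, had 149 and 104.5 FPKM in Landrace and 79.7 and 120.3 in Jinhua. SLC25A20, which brings acylcarnitines into the matrix for oxidation, had 43.2 and 63.8 FPKM in Landrace and 54.9 and 65.0 in Jinhua. The breeds overlapped for these 3 genes.

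Among the amino acid carriers, SLC25A22 stood apart in 1 animal. SLC25A22 carries glutamate, and it had 115 FPKM in Landrace replicate 1 against 28.2 in Landrace replicate 2 and 22.5 and 36.5 in the Jinhua animals. Landrace replicate 1 was also the library in which most adipocyte markers were highest, and the part of this in the level of SLC25A22 was not tested. SLC25A38, a glycine carrier needed for haem synthesis, had 25.4 and 34.01 FPKM in Landrace and 30.9 and 46.9 in Jinhua. SLC25A44, a carrier of branched-chain amino acids, had 18.2 and 29.1 FPKM in Landrace and 19.07 and 24.0 in Jinhua. The breeds overlapped for all 3.

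The breed comparison asked whether carrier transcripts differed in level between Jinhua and Landrace fat. No member passed the threshold, a Benjamini-Hochberg adjusted p under 0.05 in limma over all tested genes, and the lowest adjusted p of a member was 0.496. Over all tested genes 5 passed, which is 0.0365% of them. At an unadjusted limma p under 0.05 there were 3 of 36 members (8.33%), beside 9.72% of all tested genes. Of these, SLC25A24 and SLC25A36 were higher in Jinhua, beside 5.85% of all genes, and SLC25A34 was lower, beside 3.87%. On the log2(FPKM + 1) scale, 20 of 36 members (55.6%) had a higher Jinhua mean, beside 58.0% of all tested genes. The median log2 difference, Jinhua minus Landrace, was 0.19 for the members and 0.15 for all tested genes. With median-ratio scaling of the libraries, which takes out the shift common to all genes, these medians were 0.032 and -0.0004, and 19 of 36 members had a higher Jinhua mean. The quartiles without that scaling were -0.12 and 0.41 for the members and -0.36 and 0.58 for all tested genes.

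The breeds did not overlap for 22.2% of the expressed carriers and for 48.3% of all tested genes. Both Jinhua animals lay above both Landrace animals for 6 members (16.7%), beside 30.2% of all tested genes. The reverse held for 2 members (5.56%), beside 18.1%. These shares are a description with no test, since the members share the same 4 animals.

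SLC25A34 had the largest difference of the family between the breeds. SLC25A34 (ENSSSCG00000003467) had 148 and 101.2 FPKM in Landrace and 5.13 and 25.7 in Jinhua. Both Landrace animals were high, both Jinhua animals were low, and the Landrace mean was 8.08 times the Jinhua mean. The log2 difference was -3.27 (SE 0.80, n = 2 against 2), with an adjusted p of 0.496 in limma. The difference was -2.21 without Jinhua replicate 1 and -4.33 without Jinhua replicate 2, and -3.43 with median-ratio scaling. The highest level was in Landrace replicate 1, where 7 of 10 adipocyte markers were also highest. The summed muscle markers were 82.8 FPKM in that library, 2841 in Landrace replicate 2, and 83.0 and 134.1 in Jinhua. The part of either marker list in the difference was not tested. UCP2, an uncoupling protein gene of the same carrier family under another symbol, also had both Landrace animals higher, with 62.3 and 42.1 FPKM against 22.2 and 12.9.

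Carriers of nucleotides accounted for 3 of the other non-overlapping members. SLC25A24, a calcium-dependent carrier that exchanges ATP-magnesium for phosphate, had 5.77 and 10.7 FPKM in Landrace and 18.07 and 19.03 in Jinhua. The log2 difference was 1.13 (SE 0.38, limma adjusted p = 0.496), and 0.74 without Landrace replicate 1. SLC25A36, a carrier of pyrimidine nucleotides, had 19.4 and 19.6 FPKM in Landrace and 32.0 and 38.2 in Jinhua, a log2 difference of 0.81 (SE 0.30, limma adjusted p = 0.496). Its relative SLC25A33, which carries pyrimidine nucleotides as well, went the other way, with 44.0 and 57.3 FPKM in Landrace and 36.4 and 20.2 in Jinhua, a log2 difference of -0.86 (SE 0.42, limma adjusted p = 0.509), which was -0.45 without Jinhua replicate 2. The Jinhua animals were high for the first 2 genes and low for the third, and the difference between SLC25A36 and SLC25A33 was not tested. The other calcium-dependent ATP-magnesium carriers overlapped between the breeds, SLC25A23 with a log2 difference of -0.12 and SLC25A25 with -0.081. Leaving out 1 animal moved these between -0.79 and 0.56 for SLC25A23 and between -0.41 and 0.25 for SLC25A25, so neither has a settled direction.

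The other 4 non-overlapping members were higher in both Jinhua animals by smaller amounts. SLC25A17, which carries CoA and other cofactors across the peroxisome membrane, had 98.9 and 111 FPKM in Landrace and 136 and 143 in Jinhua. SLC25A12, an aspartate-glutamate exchanger of the malate-aspartate shuttle, had 2.94 and 4.12 FPKM in Landrace and 7.37 and 4.97 in Jinhua. SLC25A40, a relative of the glutathione carrier SLC25A39, had 4.62 and 6.31 FPKM in Landrace and 7.72 and 7.56 in Jinhua. SLC25A46, a protein of the outer membrane involved in mitochondrial shape, had 7.90 and 5.68 FPKM in Landrace and 8.76 and 8.43 in Jinhua. Their log2 differences ran from 0.31 (SLC25A46) to 0.65 (SLC25A12), and their limma adjusted p from 0.516 (SLC25A12) to 0.652 (SLC25A46). With median-ratio scaling the differences were 0.51 for SLC25A12, 0.28 for SLC25A40, 0.23 for SLC25A17 and 0.16 for SLC25A46. Leaving out 1 animal lowered SLC25A12 to 0.41 (without Jinhua replicate 1), SLC25A40 to 0.24 (without Landrace replicate 1) and SLC25A46 to 0.11 (without Landrace replicate 2).

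**Figure D2:**
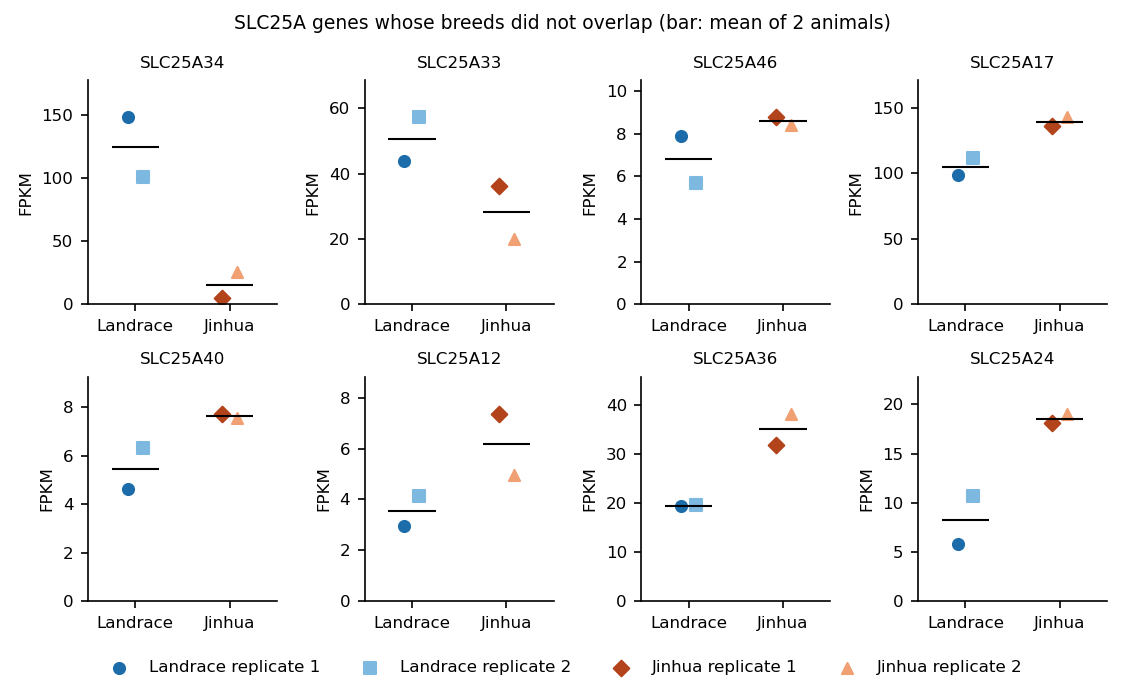
FPKM of the 8 SLC25A genes for which the 2 Landrace and the 2 Jinhua animals did not overlap, with 1 point per animal, a bar at the mean of each breed, and axes starting at 0. SLC25A34 and SLC25A33 were lower in Jinhua, and the other 6 genes were higher there.

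By role, no group of 3 or more genes had every member on the same side. Of 8 tested carriers of nucleotides and phosphate 5 had a higher Jinhua mean on the log2 scale, with a median log2 difference of 0.21. The corresponding counts were 4 of 7 for amino acid carriers (median 0.20), 5 of 8 for carriers of cofactors, glutathione and iron (0.24), and 1 of 3 for carriers of carboxylates and acylcarnitine (-0.14). Over all tested genes 58.0% lay above 0. The last of these medians is the value of SLC25A1, whose Jinhua mean was the higher in FPKM. Without Jinhua replicate 1 the SLC25A1 difference was 0.90. SLC25A14 and SLC25A27, relatives of the uncoupling proteins, were both above 0, with log2 differences of 0.40 and 0.48. Among the cofactor carriers, SLC25A26, which brings the methyl donor S-adenosylmethionine into the matrix, had 7.91 and 15.4 FPKM in Landrace and 13.3 and 18.6 in Jinhua. The mitoferrin genes SLC25A28 and SLC25A37, which carry iron, had log2 differences of 0.25 and -0.019. SLC25A28 had 46.2 and 35.2 FPKM in Landrace and 41.9 and 55.4 in Jinhua, and the breeds overlapped. SLC25A32, a carrier of FAD, had a log2 difference of 0.23.

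The remaining members overlapped between the breeds. They included the aspartate-glutamate exchanger SLC25A13 (log2 difference 0.41), the ornithine carrier SLC25A15 (0.20) and the basic amino acid carrier SLC25A29 (-0.18), each of which turned its sign when 1 animal was left out. SLC25A45 had 4.01 and 1.52 FPKM in Landrace and 1.05 and 1.83 in Jinhua, a log2 difference of -0.56 (SE 0.50, limma adjusted p = 0.631). SLC25A35 had 8.31 and 8.65 FPKM in Landrace and 4.22 and 8.38 in Jinhua, a log2 difference of -0.44 (SE 0.39, limma adjusted p = 0.631). In each of these, 1 animal stood away from the other 3. SLC25A16 had a log2 difference of 0.32, SLC25A43 of -0.048 and SLC25A47 of -0.029. Without Landrace replicate 1 the SLC25A45 difference was -0.066, and without Jinhua replicate 1 that of SLC25A35 was -0.015. SLC25A48 had a difference of 0.81 that rested on 1 animal, with 4.50 FPKM in Jinhua replicate 1 and 0 to 0.369 in the other libraries. SLC25A27 likewise had 14.9 FPKM in Jinhua replicate 1 against 4.97, 7.49 and 5.23 in Landrace replicate 1, Landrace replicate 2 and Jinhua replicate 2. SLC25A47 was also highest in Jinhua replicate 1, at 7.87 FPKM. Of 4 matched epithelium markers 3 were highest in that library too, but EPCAM among them stayed at 0 to 0.657 FPKM. KRT19 was highest in Jinhua replicate 2, at 8.83 FPKM against 3.42 in Jinhua replicate 1. The part of this in the levels of SLC25A27, SLC25A47 and SLC25A48 was not tested.

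Other mitochondrial transport and metabolism genes were measured in the same fit, and none of them passed the threshold. Of 19 tested genes of other inner membrane transport, 12 lay above 0 (median log2 difference 0.32), 6 had both Jinhua animals higher (31.6%, beside 30.2% of all tested genes) and 3 had both lower (15.8%, beside 18.1%), shares near the background. MCU, the pore of the calcium uniporter, had a log2 difference of 0.69 and MICU2, its regulator, 0.68, while ABCB8, an ABC transporter, had -0.99 and LETM1, an ion exchanger, -0.76. The breeds overlapped for both of these, and Landrace replicate 1 stood above the other libraries, with 77.9 FPKM against 16.8 to 44.0 for ABCB8 and 95.9 against 27.3 to 39.7 for LETM1. Of 10 genes of the machinery that imports carrier proteins 6 lay above 0 (median 0.054). Of 4 carrier genes under other symbols 3 lay above 0 (median 0.16), with UCP2 below. For 33 oxidative phosphorylation subunits the count above 0 was 25 (75.8%, beside 58.0% of all tested genes, median 0.42). Of these subunits 17 were higher in both Jinhua animals (51.5%, beside 30.2%) and none was lower in both (beside 18.1%). The carrier median of 0.19 lay below that of the respiratory chain, a difference that was not tested. Matrix enzymes and related metabolism had 16 of 23 above 0 (median 0.29). The urea cycle genes OTC and CPS1 were among those above 0, yet were high in 1 animal of each breed. OTC had 0 and 21.7 FPKM in Landrace and 55.7 and 0 in Jinhua, and CPS1 0.026 and 38.0 against 101.7 and 0.069.

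The m6A lists held peaks on 28 of the 38 members, 186 peaks in all. Landrace replicate 1 had 25 peaks on 18 members, Landrace replicate 2 had 54 on 25, Jinhua replicate 1 had 56 on 26 and Jinhua replicate 2 had 51 on 26. Landrace replicate 1 was also the shortest list over all genes, with 8909 peaks against 16116 to 20688 in the others. The lists give positions alone, with no enrichment or read number, so the strength of a peak was not analysed here. Peaks on members were 100 to 391 bases wide (median 156, as for all genes).

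A peak in all 4 libraries, at any position of the transcript, was present on 17 of the 36 expressed members (47.2%), beside 30.4% of all tested genes. A site of peaks chained by overlaps, with a peak of all 4 libraries, was present on 16 members. Peaks chained through another peak need not overlap each other, as on SLC25A22. Peaks in 3 libraries were listed for 7 members, in 2 for SLC25A25 and SLC25A35 (Landrace replicate 2 and Jinhua replicate 1), and in Jinhua replicate 2 alone for SLC25A13 and SLC25A24. No peak in any library was found for 8 of them (22.2%), beside 27.8%. Presence went with level. All 8 expressed members without a peak had mean levels under 10 FPKM, namely SLC25A12, SLC25A14, SLC25A16, SLC25A32, SLC25A40, SLC25A45, SLC25A47 and SLC25A48. Of the 10 members above 50 FPKM, 9 had a peak in all 4 libraries (90%), beside 58.4% of all genes at that level. From 10 to 50 FPKM it was 6 of 10, beside 47.4%, and from 1 to 10 FPKM 2 of 16 (12.5%), beside 9.01%. The members by level are few, and these shares carry no test.

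**Figure D3:**
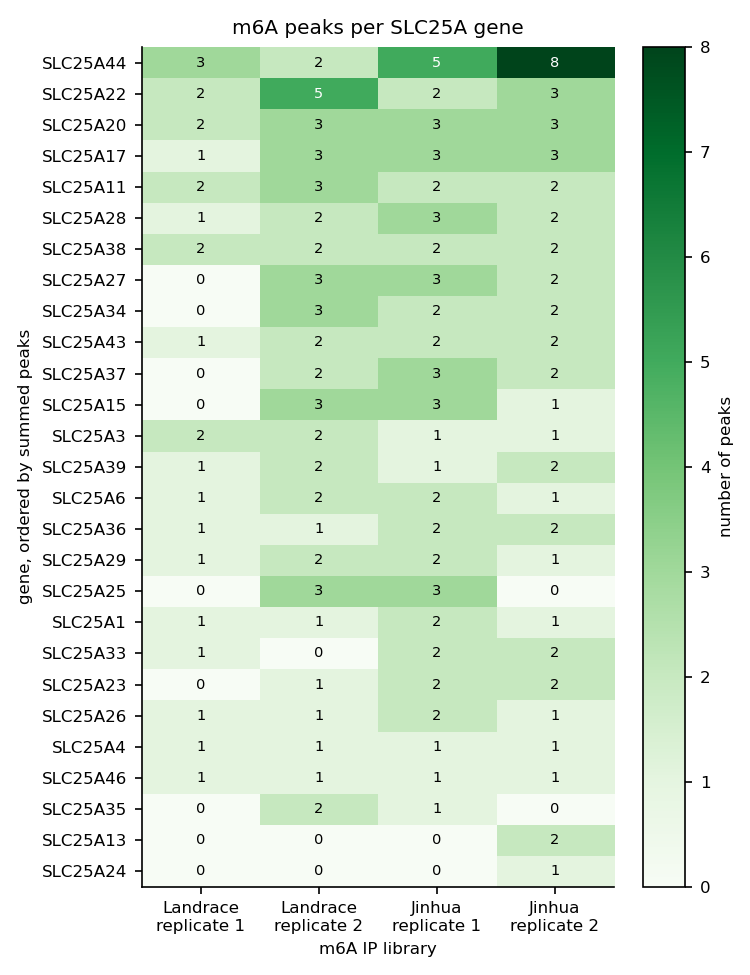
Number of m6A peaks on 27 SLC25A genes with a peak, by IP library, with darker cells for more peaks. SLC25A44 has the most, with 18 summed over the libraries, and the cells at 0 are most frequent in Landrace replicate 1.

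SLC25A44 carried the most peaks and SLC25A34, with the largest breed difference in level, was without a peak in the library of its highest level. SLC25A44 had 3 and 2 peaks in Landrace and 5 and 8 in Jinhua on transcript ENSSSCT00000007113. Some of these abut, such as bases 1 to 100 and 101 to 220 in Jinhua replicate 2, so the counts depend on where the authors' caller ended a peak. When overlapping peaks of any library were merged, SLC25A44 had 6 sites, of which 1 (bases 726 to 1185, assigned by the authors to the coding sequence for some peaks and to the 3' UTR for others) was present in all 4 libraries. A site in the 3' UTR at bases 2251 to 2452 was present in both Jinhua libraries and in neither Landrace library. SLC25A34 had no peak in Landrace replicate 1, at 148 FPKM, and 3, 2 and 2 peaks in the other libraries, at 101.2, 5.13 and 25.7 FPKM. In those 3 libraries a peak lay in the 5' UTR within bases 542 to 680 of ENSSSCT00000003853, and another within bases 1539 to 1700, assigned to the coding sequence in 2 libraries and to the 3' UTR in Jinhua replicate 2. Landrace replicate 1, with the highest level, thus had no listed peak, and Jinhua replicate 1, with the lowest, had 2. The list of Landrace replicate 1 was also the shortest, with 8909 peaks over all genes. It held peaks on 18 members, against 25 to 26 in the others, and its part in the missing SLC25A34 peak was not tested.

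Several abundant carriers had peaks at shared positions in all 4 animals. SLC25A3 had a 3' UTR peak in all 4 libraries within bases 1040 to 1224 of ENSSSCT00000000970. Its coding peak, at bases 67 to 222 in Landrace replicate 1 and 69 to 224 in Landrace replicate 2, was absent from both Jinhua lists, the 1 member site with that pattern. SLC25A20 had a coding peak at the start of the transcript (bases 1 to 204) and a 3' UTR peak (bases 882 to 1104) in all 4 libraries. A further coding peak at bases 602 to 812 was missing from the list of Landrace replicate 1. SLC25A17 had a coding peak within bases 67 to 249 in all 4 libraries, and 2 more sites, at bases 777 to 982 and 1015 to 1200, in the 3 libraries other than Landrace replicate 1. SLC25A22 had 2, 5, 2 and 3 peaks in the order of libraries above. Its merged coding site at bases 322 to 842 held a peak of all 4 libraries, but not at 1 shared position. There the peaks of Landrace replicate 1 (bases 677 to 842) and Jinhua replicate 1 (bases 500 to 658) did not overlap.

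SLC25A11 had 2 sites, in the coding sequence (bases 103 to 366) and the 3' UTR (bases 1272 to 1539), both present in every library. SLC25A28, a mitoferrin gene, had a 3' UTR site at bases 1345 to 1524 in all 4 libraries. SLC25A38 had 2 peaks in each library, with a site at bases 87 to 372 in all 4. SLC25A27 had 2 sites in the 3' UTR, at bases 1552 to 1711 and 2124 to 2277, in the 3 libraries other than Landrace replicate 1. The other sites present in both Jinhua libraries and no Landrace library were on SLC25A23 (bases 508 to 650, coding sequence) and SLC25A37 (bases 1131 to 1377, 3' UTR).

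**Figure D4:**
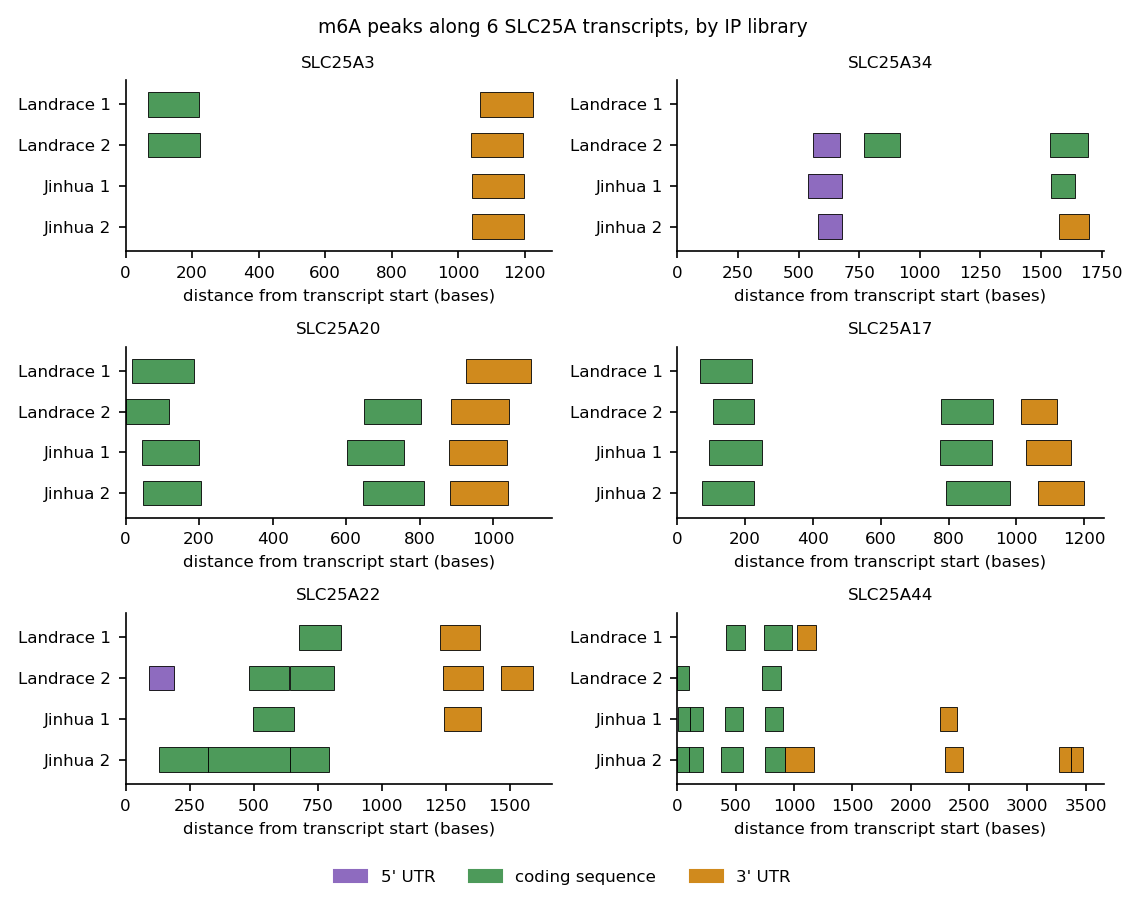
Position of the authors' m6A peaks along the transcripts of SLC25A3, SLC25A34, SLC25A20, SLC25A17, SLC25A22 and SLC25A44, as distance in bases from the transcript start, with 1 row per IP library and colour for the part of the transcript. The coding peak of SLC25A3 is listed in both Landrace libraries and in no Jinhua library, and Landrace replicate 1 has no peak on SLC25A34.

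The members' peaks merged into 72 sites, of which 18 (25%) were present in all 4 libraries, beside 18.5% of the 27320 sites of all genes. Sites in both Landrace libraries and no Jinhua library numbered 1 (1.39%, beside 2.32%), and sites in both Jinhua libraries and no Landrace library 3 (4.17%, beside 6.95%). Of the 186 peaks, 164 (88.2%) overlapped a peak of another library by at least 1 base, beside 84.5% of all peaks. All 25 peaks of Landrace replicate 1 did so.

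Peaks on the carriers lay in the 3' UTR at a higher share than peaks over all genes in each library, a description that carries no test. Among the members' peaks, 48.0% were in the 3' UTR in Landrace replicate 1 (95% Wilson interval 30.03 to 66.5, 12 of 25 peaks), 33.3% in Landrace replicate 2 (22.2 to 46.6, 18 of 54), 41.1% in Jinhua replicate 1 (29.2 to 54.1, 23 of 56) and 43.1% in Jinhua replicate 2 (30.5 to 56.7, 22 of 51). The shares over all genes were 20.5%, 19.1%, 21.2% and 21.7%, so the members were higher in 4 of 4 libraries. The breeds were not separated by more than these intervals. The intervals cover counting error only and treat peaks as independent, although the libraries share the same transcripts. Counted once per site, 30 of 72 member sites (41.7%) were in the 3' UTR, beside 21.5% of all sites. By gene, 21 of the 28 members with a peak (75%) had one in the 3' UTR, beside 38.3% of all genes with a peak and 40.5% of those with a symbol. Coding peaks were on 27 of the 28. The lengths of the coding sequences and annotated UTRs were not analysed here, and their part in these shares was not tested.

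**Figure D5:**
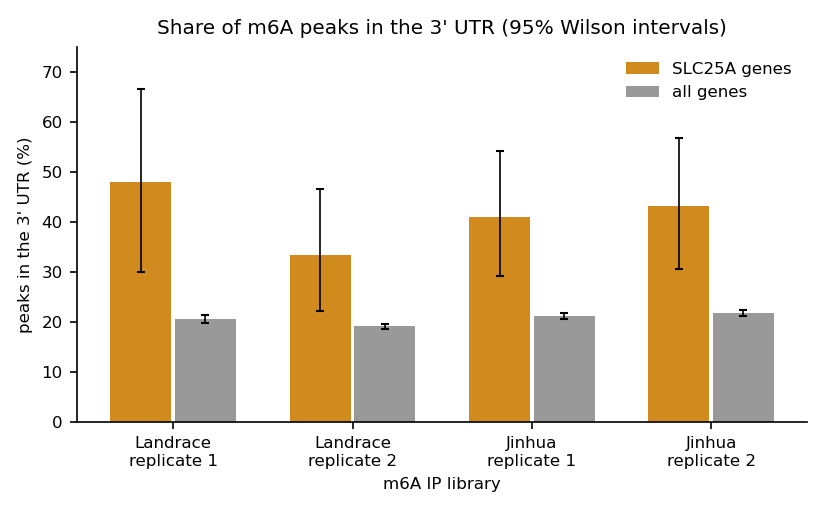
Share of m6A peaks in the 3' UTR by IP library, for peaks on SLC25A genes and for peaks on all genes, with 95% Wilson intervals for counting error. The share on SLC25A genes lies between 33.3% and 48.0%, above the 19.1% to 21.7% of all genes in each library.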

How the data were processed

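Input expression was the FPKM that the authors deposited for 4 input libraries. The deposited table does not name the unit, and FPKM was inferred from the column name tracking_id, per the file headers, and from values that were neither whole nor logged. Each IP library had its own deposited list of peaks, which gave each peak's location (UTR or coding sequence) and its start and end, counted from the first transcript base. The kit marked strand, per the labels. Per the submitters' processing notes, TopHat2 2.0.14, Sscrofa10.2 and susScr3 were named with no role. The quantifier, the use of strand, the peak caller and its threshold are not stated there, and depth is unknown. A further 4 expression columns and 4 peak lists that match no described sample were not analysed here.

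Breeds were compared with limma 3.58.1 in R 4.3.3 (trend, two-sided) after adding 1 and taking log2, over the 13693 gene IDs that averaged at least 1 FPKM, with Benjamini-Hochberg adjustment over all of them. The replicates were separate animals. The step was tested on simulated data, in which most of the smallest changes made were not called and unchanged genes were called more often than the threshold allows. Fold changes on this scale are understated for low genes. For 2 animals against 2, an exact permutation test allows no two-sided p under 0.333. Peaks were merged into sites where they overlapped by at least 1 base. Full values are given for the 10 most abundant members, the 10 with the smallest unadjusted p and those with the 6 highest peak totals, ties included, and further genes were named after their values were seen. The members and lists were chosen with earlier results of these data known. Alternatives were the pseudocount, the filter, 2 scalings, the replicate block, each animal left out, and peak overlap and width. No genome or sequence was used. 1 member counts in every total but is not reported here on its own.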

Additional observations from a re-analysis of the deposited data

How the results depend on the processing

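No SLC25A gene was called by limma under any alternative run. Over all genes, the count of 5 became 0 with no filter on low values, with median-ratio scaling, with the replicate block and without any 1 animal (0 to 0). Deviations of same-numbered animals had a correlation of -0.384 across genes. With 2 animals per breed, this value cannot show whether the numbers pair animals. The crossed replicate block, added after seeing the data, called 0 genes too. At an unadjusted limma p under 0.05 these counts were 1464 with no filter, 1207 with median-ratio scaling, 695 with the block, 1603 with the crossed block and 316 to 2704 without 1 animal, against 1331 in the main comparison. Between 16 and 23 members had a higher Jinhua mean under the alternatives, where 16 was with a mean of at least 5 FPKM and fewer members tested. The members' median log2 difference stayed between 0.032 (median-ratio scaling, which brought that of all genes from 0.15 to -0.0004) and 0.21. SLC25A4 turned to -0.15 with median-ratio scaling and -0.065 with quantile normalization. Leaving out each animal turned the sign for 9 of the 21 genes given in full, with log2 differences from -1.17 to 0.90 for SLC25A1, -0.20 to 1.005 for SLC25A3, -0.17 to 0.23 for SLC25A4, -0.048 to 1.15 for SLC25A6, -0.094 to 0.46 for SLC25A20, -1.97 to 0.026 for SLC25A22, -0.19 to 1.16 for SLC25A27, -0.79 to 0.73 for SLC25A39 and -0.43 to 0.22 for SLC25A44. It also turned the sign for SLC25A13 (-0.032 to 0.85), SLC25A15 (-0.40 to 0.79), SLC25A23, SLC25A25, SLC25A29 (-0.66 to 0.31), SLC25A37, SLC25A43, SLC25A47 (-1.10 to 1.05) and SLC25A48 (-0.42 to 2.04). The cause was not tested. Without Landrace replicate 1, 23 members had peaks in all remaining libraries. With 50% of the shorter peak as the overlap, 162 peaks were shared, and every listed peak was already at least 100 bases wide.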
